A study of Homo sapiens with 90 samples.

Results

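LOX, TGFBR2, IGFBP3, DKK1, FOXO1 and SPRY1 are genes that have been reported as repressed by the EWSR1-FLI1 fusion in Ewing sarcoma, and their level and their response to 3 chemicals were measured here in A673 cells, an established Ewing sarcoma line that carries the fusion. The members were the probe sets annotated to exactly 1 of these 6 symbols, which gave 13 probe sets of 54613 and 6 genes of 19774. LOX had 3 probe sets, FOXO1 had 3, TGFBR2, IGFBP3 and SPRY1 had 2 each and DKK1 had 1, and none was lost to a filter on low values because none was applied. The brightest probe set of each gene, by its mean over all 90 columns, stands for the gene unless another is named by its probe set name: 215446_PM_s_at for LOX, 208944_PM_at for TGFBR2, 210095_PM_s_at for IGFBP3, 204602_PM_at for DKK1, 202723_PM_s_at for FOXO1 and 212558_PM_at for SPRY1.

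A673 cells were exposed for 24 h to fenbuconazole, imazalil or 2,4-D, each at 9 concentrations between 0.001 and 10 µM, or to the DMSO vehicle at 0.2%. Fenbuconazole is a triazole fungicide, imazalil an imidazole fungicide and 2,4-D a phenoxyacetic acid herbicide. Each group held 3 arrays, and each chemical's set of 30 columns held 27 treated columns and 3 of DMSO. Every group carries the fusion, so the files hold no cells without it, and repression by the fusion was not measured in them.

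EWSR1-FLI1 joins the activation domain of EWSR1 to the ETS DNA-binding domain of FLI1, which recognizes the core GGAA. Runs of GGAA repeats are known as sites where the fusion activates genes, while single ETS sites and recruited repressor complexes have been described at genes that it holds down. LOX makes lysyl oxidase, a secreted enzyme that crosslinks collagen and elastin. TGFBR2 is the type II receptor for TGF-beta ligands, IGFBP3 is a secreted protein that binds insulin-like growth factors, DKK1 is a secreted antagonist of WNT signaling, FOXO1 is a transcription factor that AKT keeps out of the nucleus, and SPRY1 is a feedback inhibitor of receptor tyrosine kinase signaling.

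The start regions of 3 members are shown because LOX was the member that 1 of the fits below called, and the probe sets used for TGFBR2 and IGFBP3 were the brightest and the dimmest of the 6, which is no order of RNA amounts. Each window runs from 250 bases before to 50 bases after an annotated start, from RefSeq on GRCh38.p14, 5′ to 3′ on the strand of the gene, with each GGAA core or its reverse complement TTCC in capitals. The window of LOX is chr5:122078210-122078509 on the minus strand, that of TGFBR2 chr3:30606106-30606405 on the plus strand and that of IGFBP3 chr7:45921223-45921522 on the minus strand.
LOX: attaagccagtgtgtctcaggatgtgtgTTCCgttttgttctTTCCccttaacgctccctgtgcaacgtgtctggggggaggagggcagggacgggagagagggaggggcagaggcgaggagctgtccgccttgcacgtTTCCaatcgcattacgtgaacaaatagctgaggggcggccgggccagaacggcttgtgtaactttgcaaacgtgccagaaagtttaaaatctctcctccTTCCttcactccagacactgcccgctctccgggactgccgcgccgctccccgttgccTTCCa
TGFBR2: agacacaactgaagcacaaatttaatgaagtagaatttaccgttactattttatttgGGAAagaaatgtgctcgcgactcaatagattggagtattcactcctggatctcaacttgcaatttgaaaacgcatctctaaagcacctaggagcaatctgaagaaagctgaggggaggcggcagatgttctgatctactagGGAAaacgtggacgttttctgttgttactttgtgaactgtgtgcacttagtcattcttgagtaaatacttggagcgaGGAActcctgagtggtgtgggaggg
IGFBP3: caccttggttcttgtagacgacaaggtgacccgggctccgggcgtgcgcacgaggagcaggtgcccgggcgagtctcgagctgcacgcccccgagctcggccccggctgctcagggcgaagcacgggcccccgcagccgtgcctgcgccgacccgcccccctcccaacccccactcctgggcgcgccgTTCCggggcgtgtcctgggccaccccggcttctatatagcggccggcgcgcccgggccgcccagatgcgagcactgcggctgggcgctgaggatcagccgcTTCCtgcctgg
On the same build LOX spans chr5:122063195-122078259, TGFBR2 chr3:30606356-30694142, IGFBP3 chr7:45912245-45921272, DKK1 chr10:52314281-52317657, FOXO1 chr13:40555667-40666641 and SPRY1 chr4:123396795-123403760. All 6 genes matched a window and together had 10, of which LOX had 3 and TGFBR2 and SPRY1 had 2 each. The cores on both strands numbered 5 in the window of LOX printed here, 3 in that of TGFBR2 and 2 in that of IGFBP3. In the windows at the outermost start of the other genes there were 5 in SPRY1, 1 in DKK1 and 1 in FOXO1. A core of 4 letters is frequent, and 95.5% of 35116 windows of this length held at least 1, with a median of 3. The longer ETS motif CCGGAA, on either strand, was found in the windows of IGFBP3 and DKK1 and in the second window of SPRY1, against 17.2% of all windows. No member window held GGAAGGAA, which 3.67% of all windows did. These matches describe letters in a window, and binding was not measured.

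A value in these data is the deposited log2 expression value from robust multi-array averaging (RMA), so a difference of 1 is a 2-fold difference. The sets of the 3 chemicals had been normalized separately, with array medians of 2.76 to 2.83 in the fenbuconazole set, 3.34 to 3.39 in the imazalil set and 3.40 to 3.46 in the 2,4-D set, and levels were therefore compared within a set. The DMSO control is called common in the labels. Between imazalil and 2,4-D, DMSO columns with the same number deviated together across genes (r of 0.867 to 0.878) and were counted as 1 array, whereas the DMSO columns deposited with fenbuconazole had r of 0.105 to 0.198 with their counterparts. The changes against DMSO in imazalil and 2,4-D thus share controls. The cells were checked against markers of their type in DMSO. Of 7 Ewing sarcoma markers, 6 were measured and all 6 lay above the median gene, from FLI1 at percentile 81.8 to CD99 at percentile 99.5, and so did 0 of 4 measured hepatocyte, 3 of 5 luminal breast and 5 of 8 mesenchymal markers.

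TGFBR2, LOX, FOXO1 and DKK1 averaged above the median gene in DMSO, and SPRY1 and IGFBP3 lay below it. The percentile of a gene among 19774 genes on the same array was 84.2 ± 1.05 for TGFBR2 (SD, n = 6 arrays, or 3 if the fenbuconazole DMSO columns hold the same arrays as the others), with a range of 82.8 to 85.5. LOX followed at 68.9 ± 2.71, between 65.7 and 73.0, and FOXO1 at 56.8 ± 1.85, between 54.6 and 59.6. DKK1 was near the middle at 51.6 ± 1.66, between 49.4 and 53.6. SPRY1 was at 45.0 ± 4.19, between 37.1 and 49.1, and IGFBP3 at 35.0 ± 4.16, between 28.4 and 38.6. No neighbours in this order overlapped except SPRY1 and IGFBP3, where SPRY1 was higher on 5 of 6 arrays. The order is one of probe brightness, which depends on the probes as well as on the RNA, and other probe sets of the same genes were dimmer. Among all probe sets of an array, TGFBR2 stood at percentile 91.4 with its main probe set and at 66.9 with 207334_PM_s_at, and the 3 probe sets of FOXO1 stood at 71.3, 57.3 and 22.9. With the probe set of median mean for each gene, LOX stood above TGFBR2, at 78.3 against 65.7 among all genes.

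**Figure D1:**
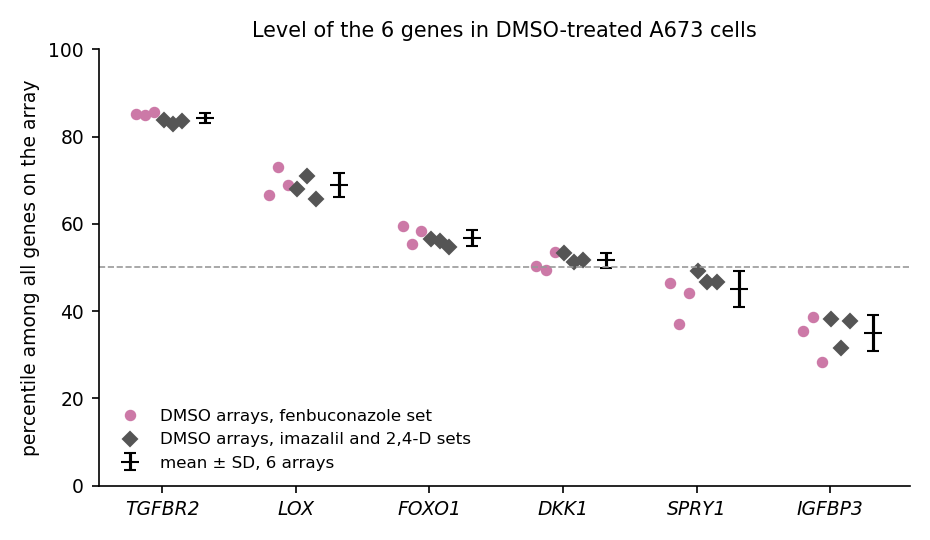
The y axis gives the percentile of each gene among 19774 genes on the same DMSO array, 1 point per array, with the mean ± SD of 6 arrays beside the points and the median gene as a dashed line. TGFBR2 lies at 82.8 to 85.5 on every array, and the points of SPRY1 and IGFBP3 overlap.

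No member passed the test at any concentration of any chemical against DMSO. In RNA from whole wells, fewer cells of a kind and less RNA per cell cannot be told apart. Over 13 probe sets and 9 concentrations, 117 changes were estimated per chemical, and 0 passed an adjusted p of 0.05 in each (limma with Benjamini-Hochberg adjustment over all probe sets). They ranged from -0.40 to 0.31 in fenbuconazole, from -0.28 to 0.33 in imazalil and from -0.27 to 0.35 in 2,4-D, with unadjusted p under 0.05 in 2, 0 and 5 of the 117, and smallest adjusted p of 0.545, 0.982 and 0.859 in the order fenbuconazole, imazalil and 2,4-D. The background was equally sparse. In the fenbuconazole set 0.00183% of all probe sets passed at 0.003 µM and 0% at each other concentration, and in imazalil and 2,4-D 0% passed at every concentration. A change of 10 µM against DMSO had a 95% interval of 0.175 to 0.468 on each side in fenbuconazole, 0.156 to 0.449 in imazalil and 0.148 to 0.496 in 2,4-D over the 13 probe sets, without allowance for the number of probe sets tested.

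LOX, the crosslinking enzyme, was the member that stood lowest against DMSO at the highest dose of fenbuconazole, and its values there overlapped those of DMSO. It had 5.87, 6.26 and 5.80 at 10 µM fenbuconazole, against 6.10, 6.71 and 6.33 in DMSO, in the order of replicates 1, 2 and 3. The array with the highest value at 10 µM lay above the lowest DMSO array, while each 10 µM array lay below the DMSO array of its own number. The change was -0.40 ± 0.229 (SE; adjusted p = 0.766, limma). At 10 µM imazalil LOX had 7.12, 7.37 and 6.87, against 7.20, 7.44 and 6.93 in DMSO. There too each 10 µM array lay below the DMSO array of its own number, and the change was -0.07. At 10 µM 2,4-D LOX had 7.07, 7.73 and 6.96, against 7.28, 7.55 and 6.97 in DMSO. The array of replicate 2 lay above its DMSO array, and the change was -0.02. In both sets the groups overlapped.

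The receptor TGFBR2 had the smallest spread of the 6. It had 7.98, 8.03 and 7.82 at 10 µM fenbuconazole, against 8.11, 8.03 and 8.16 in DMSO, a change of -0.16 (95% interval -0.33 to 0.02). At 10 µM imazalil it had 8.58, 8.89 and 8.61, against 8.84, 8.73 and 8.82 in DMSO, and at 10 µM 2,4-D 8.80, 8.78 and 8.60, against 8.88, 8.67 and 8.79 in DMSO. Treated and DMSO arrays overlapped in all 3 sets. The changes in imazalil and 2,4-D were -0.10 and -0.05. TGFBR2 was below DMSO at 9 of 9 concentrations of fenbuconazole, 9 of 9 of imazalil and 7 of 9 of 2,4-D, with changes of -0.19 to 0.02. The 9 contrasts of a set share the same 3 DMSO arrays, and no change passed. The second probe set, 207334_PM_s_at, had a change of -0.26 at 10 µM imazalil (95% interval -0.53 to 0.01, adjusted p = 1). Its treated and DMSO values did not overlap there, as in no other member probe set and chemical at 10 µM. How often 3 arrays lie apart from 3 over all probe sets was not counted, so this is no result about the gene.

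The growth factor binding protein IGFBP3 had 2.27, 2.59 and 2.58 at 10 µM fenbuconazole, against 2.76, 2.90 and 2.56 in DMSO, a change of -0.27 (interval -0.54 to 0.01) with overlapping values. Among the member probe sets it came nearest to the threshold in this contrast, with an adjusted p of 0.726. At 10 µM imazalil it had 3.53, 3.18 and 2.89, against 3.46, 3.09 and 3.33 in DMSO. At 10 µM 2,4-D it had 3.42, 3.31 and 3.33, against 3.39, 3.29 and 3.53 in DMSO. These groups overlapped as well, with changes of -0.10 and -0.05. The second probe set, 212143_PM_s_at, had means of 2.27, 2.84 and 2.76 at 10 µM fenbuconazole, imazalil and 2,4-D, against 2.38, 2.93 and 2.95 in DMSO. Both probe sets are dim, at percentiles 47.7 and 29 among all probe sets in DMSO. How far signals this low follow the RNA was not tested.

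The WNT antagonist DKK1 had 4.07, 3.86 and 4.07 at 10 µM fenbuconazole, against 3.71, 3.59 and 4.19 in DMSO, a change of 0.17 ± 0.208 (SE). At 10 µM imazalil it had 4.93, 4.78 and 4.96, against 5.31, 4.71 and 4.86 in DMSO. At 10 µM 2,4-D it had 5.02, 5.29 and 4.83, against 5.30, 5.06 and 5.05 in DMSO. The groups overlapped in each set, and the changes in imazalil and 2,4-D were -0.07 and -0.09.

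The transcription factor FOXO1 had 5.09, 4.84 and 4.88 at 10 µM fenbuconazole, against 5.19, 4.45 and 4.94 in DMSO. Its changes at 10 µM were 0.08, 0.01 and 0.09 in fenbuconazole, imazalil and 2,4-D, with standard errors of 0.155, 0.156 and 0.138. At 10 µM 2,4-D its other probe sets lay on opposite sides of DMSO. FOXO1 228484_PM_s_at had a mean of 2.98, against 2.76 in DMSO, and 202724_PM_s_at 4.08, against 4.25. SPRY1, the feedback inhibitor, had 3.32, 3.55 and 3.23 at 10 µM fenbuconazole, against 3.28, 2.84 and 3.09 in DMSO, a change of 0.30 (interval -0.03 to 0.63). At 10 µM imazalil SPRY1 had 4.21, 4.41 and 4.98, against 4.45, 4.14 and 4.09 in DMSO, a change of 0.31 (interval -0.03 to 0.65). Its 10 µM values overlapped DMSO in both sets. SPRY1 was above DMSO at 5 of 9 concentrations of fenbuconazole and at 9 of 9 of imazalil and of 2,4-D, which share DMSO arrays. The second probe set of the gene, 230212_PM_at, had changes of -0.19, 0.08 and -0.10 at 10 µM in the order fenbuconazole, imazalil and 2,4-D.

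**Figure D2:**
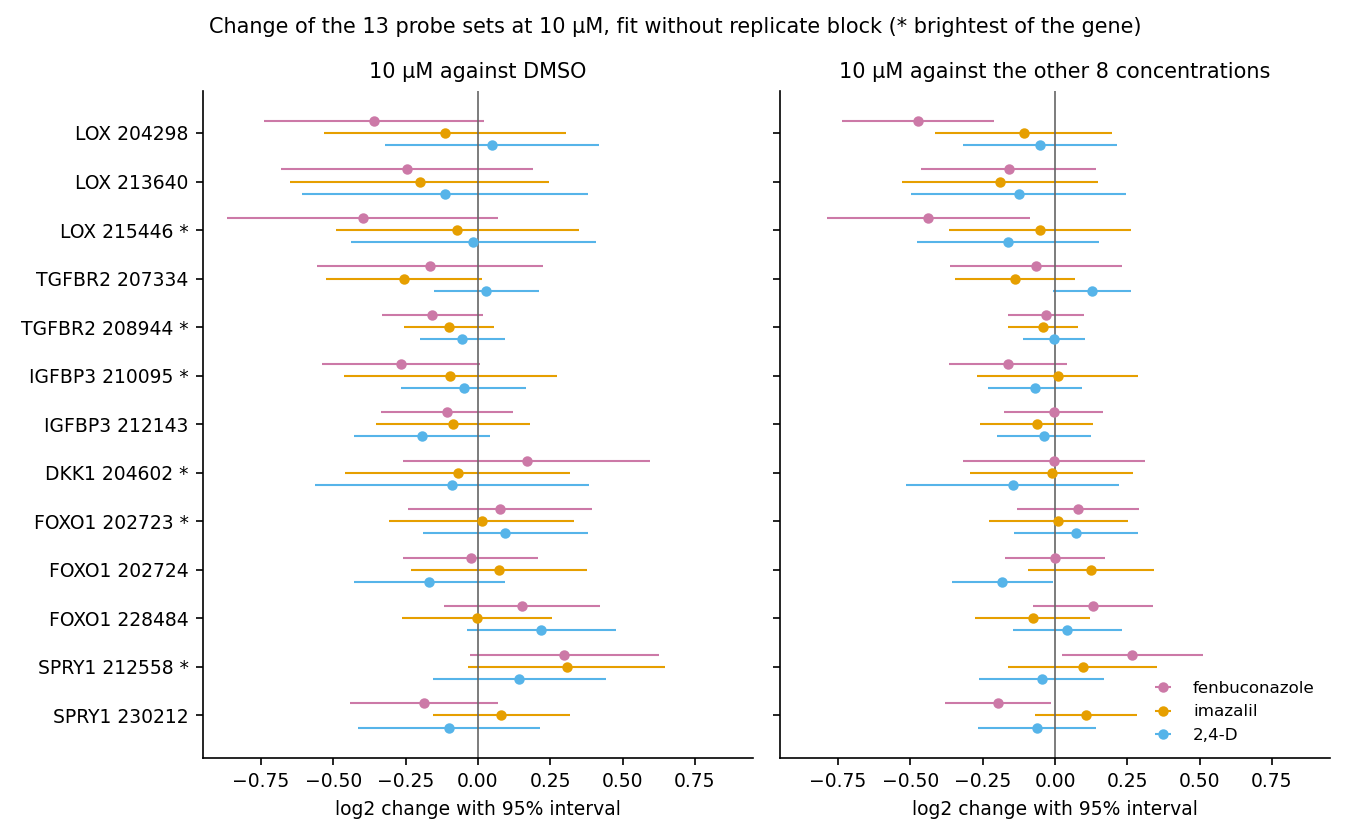
The x axis gives the log2 change at 10 µM against DMSO (left) and against the other 8 concentrations (right), from the fit without a replicate term, and each row is 1 of the 13 probe sets, with points for the 3 chemicals and lines for 95% intervals. Against the other 8 concentrations, LOX probe sets 204298_PM_s_at and 215446_PM_s_at lie at -0.47 and -0.44 in fenbuconazole with intervals below 0, and neither passed after adjustment.

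A dependence on concentration was tested in 2 further ways. The moderated F over all 9 contrasts called 0 of 13 member probe sets in each chemical, against 0% of all probe sets. The slope on log10 concentration over the 27 treated arrays also called 0 of 13 in each chemical, against 0% of all probe sets in fenbuconazole, 0.00183% in imazalil and 0% in 2,4-D. In fenbuconazole the slopes with an unadjusted p under 0.05 were those of LOX 204298_PM_s_at (-0.08 per 10-fold concentration), IGFBP3 (-0.05) and FOXO1 (0.05), each with an adjusted p of 1. The only other such slope was that of TGFBR2 207334_PM_s_at in 2,4-D, at 0.04 with an adjusted p of 1. With the replicate number as a term the F and the slope still called 0 members in each chemical. All probe sets called were then 0.00549% for the F and 0% for the slope in fenbuconazole, 0.00366% for each in imazalil and 0% for each in 2,4-D.

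LOX was lower at 10 µM fenbuconazole than at the other 8 concentrations of the same chemical, and whether it was called depended on the fit. The other 24 arrays ran from 5.90 to 6.95 with a median of 6.38, and 9 of them lay below the highest 10 µM array. Within each replicate number the 10 µM array was the lowest of the 9 treated arrays. It had 5.87 in replicate 1, against a mean of 6.37 at the other 8 concentrations, 6.26 in replicate 2, against 6.76, and 5.80 in replicate 3, against 6.13. The differences within numbers were -0.49, -0.50 and -0.32. The change over all arrays was -0.44 ± 0.170 (SE, adjusted p = 0.709, limma without a replicate term).

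With the replicate number as a block the same change of -0.44 had a standard error of 0.0636 and passed (adjusted p = 0.00409, limma with the replicate block). Each number has 1 array at each concentration, so the block could not alter the size of the change. The count of member probe sets called was 1 of 13 with the block and 0 without it, against 0.0366% of all probe sets with the block and 0.00366% without it. LOX 204298_PM_s_at changed by -0.47, with an adjusted p of 0.0733 with the block and 0.366 without it. Its 10 µM array was also the lowest of 9 within each number, at 5.08, 5.89 and 5.24, against 5.82, 6.04 and 5.76 at the other 8 concentrations. LOX 213640_PM_s_at, the dimmest of the 3, changed by -0.16 (adjusted p = 0.890 with the block). Leaving out any 1 of the 3 replicates ended the blocked call, with changes of -0.41 to -0.49 and adjusted p of 0.170 without replicate 1, 0.437 without replicate 2 and 0.238 without replicate 3. Leaving out only the 10 µM array of replicate 1, 2 or 3 gave an adjusted p of 0.0589, 0.117 and 0.0107. Against DMSO the block gave LOX an adjusted p of 0.237, and 0 of 13 members passed in any chemical, against 0.00732% of all probe sets in fenbuconazole, 0.00366% in imazalil and 0% in 2,4-D.

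No other concentration of fenbuconazole gave a like difference in LOX. When each of the other fenbuconazole concentrations was set against the remaining 8 in the blocked fit, LOX differed by between -0.13 at 0.003 µM and 0.22 at 0.1 µM, with adjusted p of 0.887 and above. At 3 µM it differed by 0.02. In imazalil LOX at 10 µM differed from the other 8 concentrations by -0.05 ± 0.0748 (SE, with the block, adjusted p = 0.941). In 2,4-D it differed by -0.16 ± 0.0748 (adjusted p = 0.630), with the 10 µM array the lowest of 9 in replicates 1 and 3 and the sixth from below in replicate 2. No member passed against the other 8 concentrations in these sets, against 0.0128% of all probe sets in imazalil and 0.00549% in 2,4-D without the block, and 0.0165% and 0.00183% with it. Among the other members in fenbuconazole, SPRY1 differed by 0.27 and SPRY1 230212_PM_at by -0.20, with adjusted p of 0.771 and 0.778 without the block and 0.660 and 0.716 with it. As a measure of RNA quality, the 3′ minus 5′ log2 signal of the ACTB control probe sets lay between 0.308 and 0.357 at 10 µM fenbuconazole, against 0.132 to 0.865 at the other 8 concentrations, so that the ranges overlapped.

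**Figure D3:**
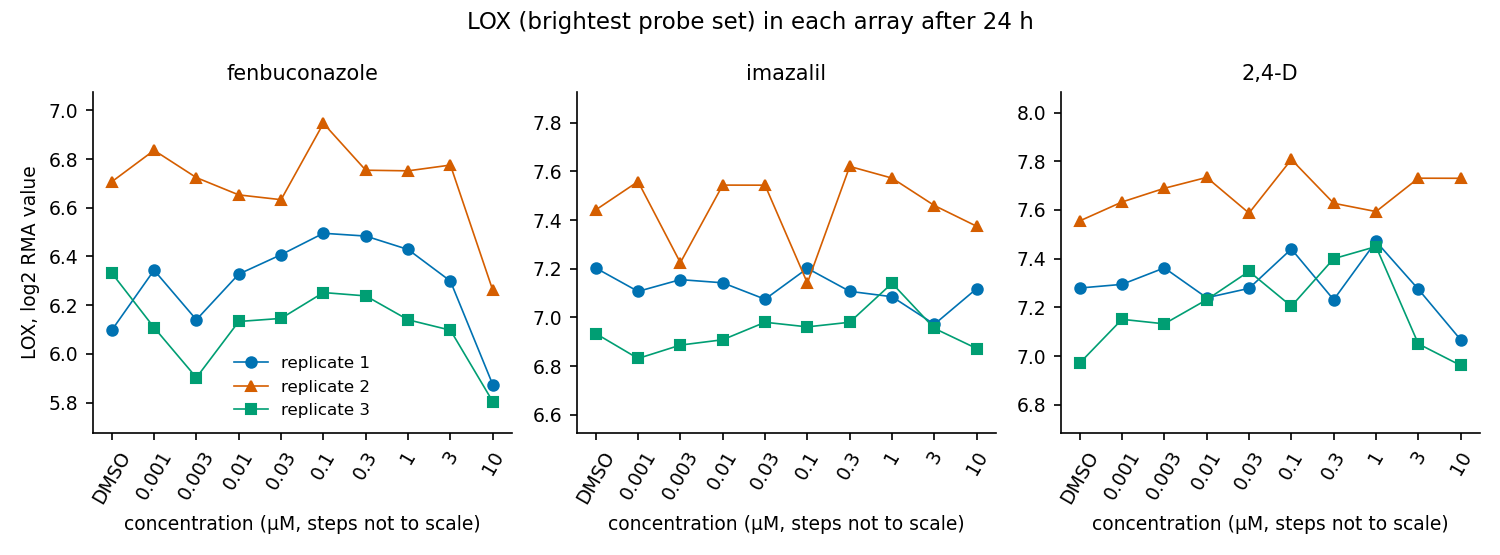
The y axis gives the LOX log2 value of each array, the x axis the concentration from DMSO to 10 µM, with 1 panel per chemical and 1 line per replicate number, and each panel spans the same 1.4 log2 units. At 10 µM fenbuconazole the 3 values are 5.87, 6.26 and 5.80, the lowest treated value of each line, and the line of replicate 2 runs above the others in all 3 panels apart from 0.1 µM imazalil.

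Fenbuconazole and imazalil are azole fungicides with a triazole and an imidazole ring, and 2,4-D holds neither ring. The changes at 10 µM against each set's DMSO were compared for 3 pairs of chemicals at the same dose and time, with p-values adjusted over all probe sets and the 3 pairs together. No member passed, against 0% of the tests over all probe sets, and each adjusted p was 1. For LOX the change in fenbuconazole minus that in imazalil was -0.33 (95% interval -0.97 to 0.32), fenbuconazole minus 2,4-D was -0.38 (interval -1.03 to 0.26) and imazalil minus 2,4-D was -0.06 (interval -0.70 to 0.59). For TGFBR2 the same 3 differences were -0.06, -0.10 and -0.05, with intervals that reached at most 0.297 on either side of 0. The differences of IGFBP3, DKK1, FOXO1 and SPRY1 lay between -0.22 and 0.26, and all of their intervals held 0. The model took the DMSO columns of the 3 sets as separate arrays, although those of imazalil and 2,4-D were counted as the same arrays above. The intervals are wide, and they do not show that the chemicals act alike on these genes. With the replicate block 0.00244% of all tests passed and again no member.

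Slopes on log10 concentration differed between chemicals for no member, against 0.00061% of all tests without the block and 0.00244% with it. For LOX the difference in slope was -0.04 for fenbuconazole minus imazalil (interval -0.15 to 0.07). A comparison of 10 µM against each set's own other 8 concentrations, which uses no DMSO column, gave LOX a difference of -0.39 ± 0.0965 (SE) between fenbuconazole and imazalil with the block (adjusted p = 0.332, limma). It gave -0.28 (interval -0.47 to -0.08, adjusted p = 0.727) between fenbuconazole and 2,4-D and 0.11 (interval -0.08 to 0.30) between imazalil and 2,4-D. No member passed in this comparison, against 0.00183% of all tests without the block and 0.00671% with it. The lower LOX at 10 µM fenbuconazole was not shown to differ from its values at 10 µM imazalil or 2,4-D.

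LOX varied more with the replicate number than with concentration. According to the methods, each replicate was an independent experiment with its own batch of cells, but no label ties a number to a batch. The replicate number took 67.9%, 79.9% and 74.3% of the variance of LOX in the fenbuconazole, imazalil and 2,4-D sets, and concentration took 25.3%, 5.69% and 10.3%. Replicate 2 was the highest of the 3 in 10 of 10 groups in the fenbuconazole set, 9 of 10 in the imazalil set and 10 of 10 in the 2,4-D set. Replicate 2 minus replicate 1 was 0.41, 0.33 and 0.38 in these sets, and the F over the 3 numbers gave adjusted p of 3.06e-07, 5.73e-06 and 1.58e-05 (limma). If a number marks a batch, its 10 arrays are repeated measures of that batch. These p-values measure the spread between arrays and not between batches, and the 3 sets may share batches. In the 2,4-D set the values did not overlap, with 7.55 to 7.81 in replicate 2, against 7.07 to 7.47 in replicate 1 and 6.96 to 7.45 in replicate 3. LOX 204298_PM_s_at also passed in all 3 sets (adjusted p = 0.0272, 0.000352 and 0.00540), and LOX 213640_PM_s_at passed in the imazalil and 2,4-D sets (adjusted p = 0.0156 and 0.000546).

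DKK1 ran the other way, with replicate 2 lowest in 8 of 10 groups of each set. Replicate 2 minus replicate 1 was -0.28, -0.39 and -0.38 in the fenbuconazole, imazalil and 2,4-D sets. Only the imazalil set passed (adjusted p = 0.00707, against 0.0720 and 0.0750 in the fenbuconazole and 2,4-D sets, limma). There DKK1 had a mean of 4.69 ± 0.18 in replicate 2, 5.08 ± 0.156 in replicate 1 and 4.96 ± 0.123 in replicate 3 (SD, n = 10 arrays each), and the ranges met only at 4.90 to 4.93 for replicates 1 and 2. No probe set of TGFBR2, IGFBP3, FOXO1 or SPRY1 passed. In all 2, 4 and 3 of 13 member probe sets passed in the fenbuconazole, imazalil and 2,4-D sets, against 0.837%, 2.13% and 3.63% of all probe sets. The imazalil and 2,4-D sets share their DMSO arrays.

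**Figure D4:**
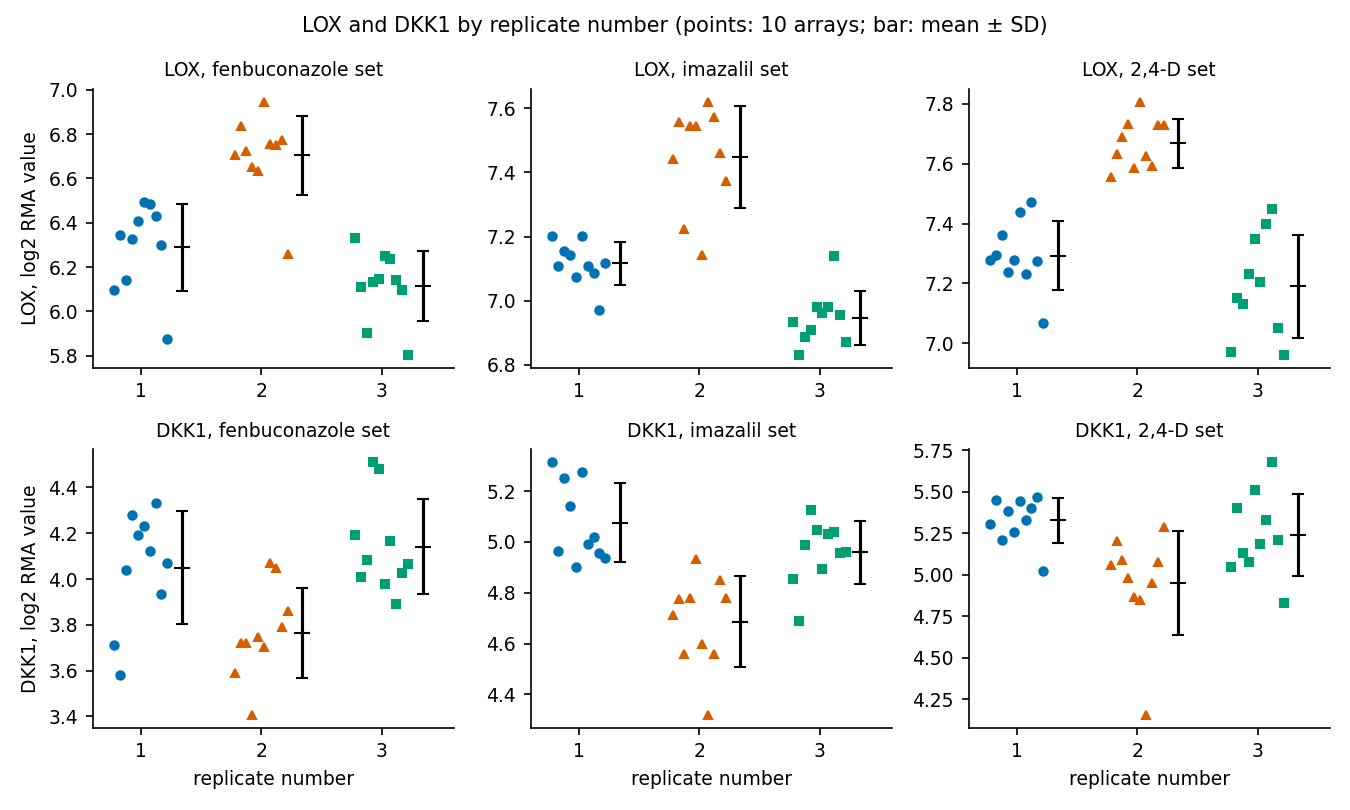
The y axis gives log2 values of LOX (top) and DKK1 (bottom), with 10 arrays per replicate number on the x axis in each chemical's set and the mean ± SD beside them, and the axes do not start at 0. LOX is higher and DKK1 lower in replicate 2, with means of LOX of 6.70, 7.45 and 7.67 in replicate 2 of the fenbuconazole, imazalil and 2,4-D sets.

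Genes that work with LOX were taken as a list of 12 genes of its family, of collagen crosslinking and of its matrix substrates. All 12 were measured, and 0 passed at 10 µM of any chemical. Their median change against DMSO was 0.06 in fenbuconazole, 0.02 in imazalil and -0.03 in 2,4-D, against -0.005, 0.0003 and -0.007 over all genes. The 2 with the smallest p in fenbuconazole were PLOD2, which hydroxylates collagen lysines, at 0.21, and elastin ELN at 0.22. In imazalil they were BMP1, a protease that matures procollagen and lysyl oxidase, at -0.20 and EFEMP2, a fibulin needed for elastic fibres, at -0.14. In 2,4-D they were LOXL3, a lysyl oxidase paralog, at 0.34 and PLOD2 at 0.12. None passed. Between replicate numbers 2, 5 and 3 of the 12 passed in the fenbuconazole, imazalil and 2,4-D sets, against 251, 614 and 1023 of 19774 genes. The fibrillar collagens COL1A2 and COL3A1 passed in all 3 sets. Replicate 2 stood above replicate 1 by 0.38, 0.35 and 0.31 for COL1A2 and by 0.42, 0.55 and 0.38 for COL3A1, the same direction as LOX.

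Of 20 genes of the TGF-beta pathway beside TGFBR2, 19 were measured and 0 passed at 10 µM. Median changes were -0.02, -0.03 and -0.02 in fenbuconazole, imazalil and 2,4-D. The lowest p in fenbuconazole belonged to the ubiquitin ligase SMURF1 at -0.43 and the signal transducer SMAD3 at 0.17. In imazalil they belonged to the receptor ACVRL1 at -0.29 and the matricellular target CCN2 at 0.12, and in 2,4-D to the type I receptor TGFBR1 at -0.14 and ACVRL1 at 0.15. None of these passed. Across replicate numbers 2, 6 and 6 of the 19 passed in the fenbuconazole, imazalil and 2,4-D sets. Over all genes 251, 614 and 1023 of 19774 passed. The ligand TGFB2 and the secreted target TGFBI passed in all 3 sets. Replicate 2 stood above replicate 1 by 0.37, 0.37 and 0.41 for TGFB2 and by 0.33, 0.26 and 0.22 for TGFBI. The inhibitory SMAD6 and SMAD7 passed in the imazalil set, at -0.42 and -0.24, and in the 2,4-D set, at -0.30 and -0.33.

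The IGF axis around IGFBP3 had 15 of 16 genes measured, with median changes of 0.12, 0.04 and -0.01 at 10 µM fenbuconazole, imazalil and 2,4-D, and 0 passed. In fenbuconazole STC2, a stanniocalcin that inhibits the IGFBP protease PAPP-A, was at -0.53 (adjusted p = 0.521) and IGFBP1 at 0.25 (adjusted p = 0.713). The binding proteins IGFBP5 at 0.23 and IGFBP1 at 0.14 had the smallest p in imazalil, and IGFBP6 at -0.16 and IGFBP7 at -0.16 in 2,4-D. Of 17 genes of the WNT pathway around DKK1, 16 were measured and 0 passed, with median changes of 0.01, 0.04 and -0.02. RNF43, a ubiquitin ligase that removes WNT receptors and is itself a WNT target, was among the 2 smallest p in each chemical, at 0.23 in fenbuconazole, 0.41 in imazalil and 0.27 in 2,4-D, with adjusted p of 0.772, 0.794 and 1. Beside it stood DKK3 at 0.28 in fenbuconazole, DKK2 at -0.19 in imazalil and the WNT target SP5 at 0.23 in 2,4-D. These values against DMSO share controls between imazalil and 2,4-D. Of the 15 IGF genes, 0, 1 and 4 passed between replicate numbers in the fenbuconazole, imazalil and 2,4-D sets. For the 16 WNT genes the counts were 0, 1 and 1, against 251, 614 and 1023 of 19774 genes.

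Of 17 FOXO factors, regulators and targets beside FOXO1, 15 were measured and 0 passed at 10 µM, with median changes of 0.03, 0.02 and -0.03 in fenbuconazole, imazalil and 2,4-D. The cyclin CCNG2 at -0.43 and the sestrin SESN1 at 0.29 had the smallest p in fenbuconazole. BCL6 at 0.20 and FOXO4 at -0.15 had them in imazalil, and FOXO4 at -0.30 and the kinase AKT1 at -0.19 in 2,4-D. Between replicate numbers 2, 2 and 4 of the 15 passed in these sets, against 251, 614 and 1023 of 19774 genes. The kinase SGK1 passed in every set, with replicate 2 below replicate 1 by -0.76, -0.65 and -0.64, and CCNG2 passed with 0.25, 0.27 and 0.29.

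Genes of Sprouty and receptor tyrosine kinase feedback were lower at 10 µM fenbuconazole in 12 of 15 against DMSO, with a median of -0.18, and 0 passed. The main probe set of SPRY1, at 0.30, was on the other side of 0. The ETS factor ETV5, a target of ERK signaling, was at -0.39 (adjusted p = 0.439) and SPRY2 at -0.33 (adjusted p = 0.639) in fenbuconazole. In imazalil 9 of 15 were lower with a median of -0.06, and ETV4 was at -0.37 (adjusted p = 0.794) and ETV5 at -0.28 (adjusted p = 0.849). In 2,4-D 12 of 15 were lower with a median of -0.05, and SPRED3 at 0.17 and SPRY3 at 0.11 had the smallest p. Of all 19774 genes, 10207, 9857 and 10530 were lower at 10 µM against DMSO in fenbuconazole, imazalil and 2,4-D. No set test was made. Between replicate numbers 2, 1 and 2 of the 15 passed in the fenbuconazole, imazalil and 2,4-D sets. Over all genes 251, 614 and 1023 of 19774 passed. The receptor FGFR3 passed in all 3 sets, with replicate 2 below replicate 1 by -0.57, -0.83 and -0.63.

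Of 20 genes listed as the fusion partners and targets that the fusion activates, 19 were measured, and their median changes at 10 µM were 0.03, 0.02 and -0.003 in fenbuconazole, imazalil and 2,4-D. Against DMSO 0 passed. The peptide hormone gene CCK, an activated target, was the only gene of any list called at 10 µM, at 0.41 ± 0.0712 (SE) against the other 8 concentrations of fenbuconazole with the block (adjusted p = 0.0273, limma with the replicate block), in the direction opposite to LOX. Without the block it did not pass (adjusted p = 0.409), and over all genes 15 of 19774 passed with the block and 1 without it. In this blocked contrast 8 of the 19 measured list genes were higher and 11 lower, with a median of -0.01. Over all genes 9612 were higher and 10162 lower. Against DMSO CCK was at 0.34 (adjusted p = 0.70). GSTM4 at 0.27 in fenbuconazole, GLI1 at -0.34 and XG at 0.28 in imazalil, and GSTM4 at -0.08 and LIPI at 0.08 in 2,4-D had the other smallest p and did not pass. CCK was also lower in replicate 2 than in replicate 1 in all 3 sets, by -0.30, -0.39 and -0.42, where LOX was higher. Between replicate numbers 2, 3 and 3 of the 19 measured list genes passed in the fenbuconazole, imazalil and 2,4-D sets. Over all genes 251, 614 and 1023 of 19774 passed between replicate numbers. Of 4 other genes reported as repressed by the fusion, 3 were lower and 1 higher at 10 µM fenbuconazole, with CDKN1A, a cyclin-dependent kinase inhibitor, at -0.15 and PHLDA1 at -0.22. CDKN1A was at -0.30 in imazalil (adjusted p = 0.873) and -0.14 in 2,4-D, and THBS1, a matrix glycoprotein, at 0.03 in imazalil and 0.13 in 2,4-D. Of these 4, 0, 1 and 1 passed between replicate numbers in the fenbuconazole, imazalil and 2,4-D sets. The 1 gene was CDKN1C, with replicate 2 above replicate 1 by 0.44 in the imazalil set and 0.45 in the 2,4-D set. Among 13 measured genes of 14 repressor cofactors 0 passed at 10 µM. The smallest p belonged to HDAC1 at -0.10 and RBBP4 at -0.12 in fenbuconazole. In imazalil it belonged to KDM1A at -0.13 and HDAC3 at 0.14, and in 2,4-D to TLE1 at -0.21 and RCOR1 at -0.07. For these 13 genes the counts between replicate numbers were 0, 0 and 1 in the fenbuconazole, imazalil and 2,4-D sets.

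The members were not alike in how they varied. Pearson correlations of deviations from the mean of a set and replicate number, over the 30 columns of a set and averaged over the 3 sets, lay between -0.271 for IGFBP3 and SPRY1 and 0.323 for LOX and DKK1 over the 15 pairs. Columns of a set share their normalization, and the imazalil and 2,4-D sets share 3 arrays. Probe sets of the same gene were little closer, at 0.439, 0.321 and 0.136 among those of LOX, 0.274 for IGFBP3 and between -0.117 and 0.0675 for FOXO1, TGFBR2 and SPRY1. By the same measure the gene most like LOX was PTX3, a secreted pentraxin, at 0.529, followed by ZCCHC8 at 0.515 and LRRC57 at 0.497. The nearest to TGFBR2 were SRSF6 at 0.552, MAN2B2 at 0.535 and NEB at 0.528, to IGFBP3 MAJIN at 0.478, GPCPD1 at 0.449 and SMIM20 at 0.407, and to DKK1 FCF1 at 0.559, HOXC9 at 0.494 and PTGS2 at 0.485. The nearest to FOXO1 were USP34 at 0.435, HS3ST4 at 0.424 and PHF24 at 0.399, and to SPRY1 DAZL at 0.474, WWP1 at 0.469 and CTBS at 0.446. These are the highest of the correlations with all other genes and are a description.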

How the data were processed

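RNA from A673 cells was measured on HT HG-U133+ PM arrays (Affymetrix). The authors deposited log2 values per probe set, computed by RMA with Partek once for the 30 columns of each chemical; versions are not given in the sources used here. The 90 columns held 54715 probe sets with values from 1.44 to 13.7. After 102 control probe sets were left out, 40914 of the 54613 tested had 1 gene symbol, 864 several and 12835 none. The number of arrays limits the precision.

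Linear models were fitted on the deposited log2 values with limma 3.58.1 (lmFit, contrasts.fit, eBayes) in R 4.3.3 with data.table (1.17.8). There was 1 model per chemical over its 30 columns for contrasts with DMSO and over the 27 treated columns for the trend and for 10 µM against the other 8 concentrations. P-values are two-sided and were adjusted by the Benjamini-Hochberg method over all probe sets within a contrast, with a threshold of 0.05. Figures were drawn with Python 3.11.15, matplotlib 3.10.9 and pandas 2.3.3.

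The members, lists, tests and the reading of replicate numbers as batches of cells were chosen with earlier results of these data known. The labels do not pair arrays by number. The pairing check correlated the residuals of arrays that share a number, which gave mean r of 0.042, 0.0689 and 0.0781 in the fenbuconazole, imazalil and 2,4-D sets, with single pairs below 0, and 25, 30 and 30 of 30 arrays were closest to their own number. The p-values measure the spread between these arrays. Named were all member probe sets, each list gene that passed at 10 µM or in the trend, and per list and chemical the 2 genes with the smallest p at 10 µM against DMSO. List genes named for replicate numbers were chosen after their values were seen, among those that passed. Each gene of a list was its brightest probe set. The alternatives were the replicate block, a filter on dim probe sets, a single probe set for each gene, the trend and robust options of eBayes, equal array medians, a second quantile normalization, DMSO arrays in the trend, DMSO means as constants, and single replicates or arrays left out.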

Additional observations from a re-analysis of the deposited data

How the results depend on the processing

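Of 138 recounts of the member probe sets called, 137 matched the count given or stayed within 1.5 times of it. At 10 µM against DMSO at most 6, 4 and 0 of all probe sets passed in any recount in fenbuconazole, imazalil and 2,4-D. A member count that stayed at 0 there says little about stability. The 1 recount outside that limit went from 0 to 1, as LOX passed at 10 µM fenbuconazole against the other 8 concentrations with the replicate block. The replicate block changed no other count of member probe sets called. That blocked LOX change kept its direction when single replicates or 10 µM arrays were left out, between -0.49 and -0.41, with adjusted p of 0.0107 to 0.437, and passed only without the 10 µM array of replicate 3. It passed with equal array medians (adjusted p = 0.00422), a second quantile normalization (0.00783), a filter on dim probe sets (0.00103), a single probe set for each gene (0.000623) and eBayes with trend and robust (0.00337). LOX 204298_PM_s_at passed with eBayes trend and robust (0.0273) and without the 10 µM array of replicate 2 (0.0196). DKK1 passed between replicate numbers with dim probe sets left out in the fenbuconazole set (0.0462) and the 2,4-D set (0.0424). Over the recounts, the member count between replicate numbers ran from 2 to 3 in the fenbuconazole set and from 3 to 4 in the 2,4-D set.

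Percentiles in DMSO moved with the genes they were ranked among. Among all probe sets they were 91.4 for TGFBR2, 81.4 for LOX, 71.3 for FOXO1, 66.1 for DKK1, 58.7 for SPRY1 and 47.7 for IGFBP3. With the probe set of median mean for each gene they were 78.3 for LOX, 65.7 for TGFBR2, 64.8 for DKK1 and 27.8 for IGFBP3, so LOX then stood above TGFBR2. TGFBR2 and IGFBP3 have 2 probe sets each, and this rule took the dimmer one.

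Of 298 recomputed single values 26 changed sign, all of changes at 10 µM against DMSO that did not pass in any setting. When single replicates or arrays were left out, FOXO1 ran from -0.13 to 0.24 in fenbuconazole. In imazalil DKK1 ran from -0.19 to 0.11, FOXO1 from -0.0912 to 0.117, IGFBP3 from -0.26 to 0.0782 and LOX from -0.201 to 0.0535. In 2,4-D LOX ran from -0.25 to 0.13, DKK1 from -0.249 to 0.0168, SPRY1 from -0.0609 to 0.32, TGFBR2 from -0.137 to 0.015, IGFBP3 from -0.106 to 0.0238 and FOXO1 from -0.0017 to 0.20. A second quantile normalization turned FOXO1 in imazalil to -0.0076 and LOX in 2,4-D to 0.014.

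With DMSO means taken as constants, which leaves out their spread, 1394 of 163839 tests between chemicals passed and 0 were of members. With dim probe sets left out, member probe sets at or below the median drop out of the fit, so the recount covers fewer than 13. Probe sets that end in s_at can match more than 1 transcript, and 3 arrays a group limit all tests.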
